A study of Caenorhabditis elegans with 2 samples.

Results

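The 8 genes described here encode the DREAM complex of Caenorhabditis elegans: lin-35, efl-1 and dpl-1, which make its Rb and E2F part, and lin-9, lin-37, lin-52, lin-53 and lin-54, which make its MuvB core. They were taken by name, as a list proposed with earlier results of these data known, from 19973 protein-coding genes, and all 8 matched a single gene in the annotation. For each gene, every call with its summit within 2 kb of an annotated 5' end was collected from the deposited peak lists of a chromatin immunoprecipitation and sequencing (ChIP-seq) experiment on the zinc finger protein LIN-13. The study held 1 group of 2 biological replicates: whole L1 (first stage) larvae of mixed sex from strain OP49. The strain is an unc119(ed3) mutant with the insertion wgIs49, which brings lin-13 fused to TY1, EGFP and FLAG tags together with unc119. DNA came from whole animals, so a site bound in few cells and a site bound weakly in many cells cannot be told apart. An untagged strain was not analysed here; the labels do not say whether the animals also make untagged LIN-13.

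DREAM is a repressor assembled around an Rb family pocket protein. In C. elegans LIN-35 is that pocket protein, EFL-1 and DPL-1 form the heterodimer that recognises E2F sites, and the MuvB core holds the LIN-54 protein, which binds the CHR element of cell cycle promoters. The complex keeps cell cycle genes low in resting cells and germline genes low in the soma. Most of its genes were found, like lin-13, as class B synthetic multivulva (synMuv B) genes, whose loss together with a class A gene gives extra vulvae. The data record where LIN-13 was recovered at the genes for these proteins, and do not record where the proteins themselves bind.

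All 8 DREAM genes had a reproducible LIN-13 summit within 2 kb of a 5' end, with 9 summits in all, against 14.6% of all protein-coding genes (2913 of 19973). A reproducible peak is one of the 2333 that the authors kept after comparing the replicates by the irreproducible discovery rate (IDR). Within 500 bp the count was 7 of 8, all but lin-37, against 8.62% of all protein-coding genes, and within 1000 bp it was again 7 of 8, against 10.9%. The strongest summits were at lin-54, with a signal of 459, and lin-9, with 342, followed by efl-1 (209.7), lin-53 (203) and lin-35 (187). Those of lin-52 (94.9 and 51.7), dpl-1 (58.9) and lin-37 (50.4) were weaker. Signal is the score of a call as the authors deposited it, on a scale not given in the sources used here, so ranks were taken within a list, and a ratio of signals is a ratio of deposited scores, not of bound protein. The read depth behind it is unknown.

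Windows at 6 of the 9 summits, each reaching 100 bp to either side of the summit, are shown. The 6 are among the windows that hold words DREAM subunits are known to recognise, so their holding such words is not a result. They include strong and weak summits. Left out were the window of lin-53, which also holds such words, and those of lin-35 and the nearer lin-52 summit, which hold none. The printed windows are read from the RefSeq copy of WBcel235, the assembly of ce11, along the strand of the named gene, and stop where an annotated UTR begins. Capitals mark E2F-like words (TTCCCGCC, TTTCCCGC, TTCGCGCC, TTGGCGCC or TTCCCGCG) and CHR words (TTTGAA or TTCGAA) on either strand. The windows are chrV:16965741-16965941 (minus strand) at efl-1, chrII:9169565-9169765 (plus) at dpl-1, chrIV:13240652-13240778 (plus) at lin-54, chrIII:8904179-8904379 (minus) at lin-9, chrIII:7074076-7074248 (minus) at lin-37 and chrIII:9826124-9826324 (minus) at the farther summit of lin-52.
efl-1: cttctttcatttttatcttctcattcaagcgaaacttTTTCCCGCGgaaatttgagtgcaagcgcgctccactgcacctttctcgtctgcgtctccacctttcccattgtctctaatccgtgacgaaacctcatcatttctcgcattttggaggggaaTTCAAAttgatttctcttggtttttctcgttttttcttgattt
dpl-1: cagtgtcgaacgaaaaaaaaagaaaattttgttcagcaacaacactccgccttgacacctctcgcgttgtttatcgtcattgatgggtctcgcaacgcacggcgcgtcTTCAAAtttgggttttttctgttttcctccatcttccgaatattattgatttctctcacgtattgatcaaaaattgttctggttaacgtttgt
lin-54: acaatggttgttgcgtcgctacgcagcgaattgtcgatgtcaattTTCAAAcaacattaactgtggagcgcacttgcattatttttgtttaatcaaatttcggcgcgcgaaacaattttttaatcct
lin-9: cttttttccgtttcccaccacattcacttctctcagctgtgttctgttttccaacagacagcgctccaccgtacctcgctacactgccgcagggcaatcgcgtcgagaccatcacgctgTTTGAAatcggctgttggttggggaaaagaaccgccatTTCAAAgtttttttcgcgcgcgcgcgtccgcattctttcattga
lin-37: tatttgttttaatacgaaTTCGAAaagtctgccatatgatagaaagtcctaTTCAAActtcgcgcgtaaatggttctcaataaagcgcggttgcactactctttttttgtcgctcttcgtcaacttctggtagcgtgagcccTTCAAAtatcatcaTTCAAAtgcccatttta
lin-52: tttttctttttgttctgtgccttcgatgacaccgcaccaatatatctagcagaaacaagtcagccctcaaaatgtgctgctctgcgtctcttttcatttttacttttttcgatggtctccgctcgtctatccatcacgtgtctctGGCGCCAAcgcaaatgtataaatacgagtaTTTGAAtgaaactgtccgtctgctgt

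E2F-like words stood in 3 of the 9 summit windows, against 6.77% of the 2333 reproducible windows and 2.56% of 29304 windows of the same length centred 150 bp upstream of protein-coding 5' ends. All of these words began 45 to 63 bp from the summit, and in windows reaching only 50 bp to either side the count was 0 of 9, against 3.94% of reproducible windows. At efl-1, TTTCCCGC and TTCCCGCG overlap in a single run of capitals on the strand of the gene. At the farther lin-52 summit the word is TTGGCGCC on the opposite strand. The third is TTGGCGCC at lin-54, 53 bp from the summit on the rpl-12 side, within the annotated 5' UTR of rpl-12 and so outside the stretch printed. CHR words stood in 7 of 9 windows, against 45.2% of reproducible windows and 55.2% of the upstream windows. At lin-54 and at lin-9 a TTTGAA starts 19 bp from the summit on the side of the gene, on the strand opposite to lin-54 and on the strand of lin-9. The lin-37 window holds 4 CHR words and that of lin-53, not printed here, holds 2, and the windows at lin-35 and at the nearer lin-52 summit held neither kind. On either strand, the GC-box CCGCCC was in 0 of 9 windows (9.39% of reproducible windows, 5.79% of upstream windows), and a run of TTTTTTTT in 1 of 9, at dpl-1 (14.3% and 25.2%). These are matches of letters, and binding of any factor to them was not measured.

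The Rb homolog lin-35 (I, 5807709 to 5815637, plus strand) had 1 reproducible summit, 198 bp upstream of its 5' end, in a call from 5807349 to 5807672. Its signal was 107 in replicate 1 and 81.2 in replicate 2, ranks 168 and 417 of the 30000 calls in each replicate list. The next strongest call within 2 kb had 11.6 in replicate 1 and 11.5 in replicate 2, so the promoter summit was 9.23 times and 7.07 times as strong. The same summit lies 220 bp upstream of vps-51, a gene for a vesicle tethering subunit of the GARP complex that is transcribed away from lin-35, in an interval of 417 bp between the 2 genes. Replicate summits were 8 bp apart. The summit cannot be assigned to either gene.

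At efl-1 (V, 16958590 to 16965675, minus strand), which encodes the E2F subunit, the summit was 166 bp upstream, in a call from 16965679 to 16966002. Signals were 105 in replicate 1 and 101.3 in replicate 2, with ranks of 174 and 261. The only other call in each replicate list had 9.43 and 10.9, at different positions. The nearest other 5' end was that of the F-box gene fbxa-90, 973 bp away, which makes efl-1 clearly the closer gene. The nearest reproducible summit beyond 2 kb was 170513 bp away, the farthest for any of the 8 genes.

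The DP partner gene dpl-1 (II, 9169910 to 9172565, plus strand) carried a weak summit, 245 bp upstream, in a call from 9169503 to 9169826. Its signals were 28.9 in replicate 1 and 27.3 in replicate 2, and its ranks 1768 and 2302. Both calls had a q-value under 0.05, with a deposited −log10 q of 2.32 in replicate 1 and 3.75 in replicate 2. The whole of dpl-1 lies within T23G7.2, a gene on the opposite strand, and the summit is in an intron of its coding transcript and an exon of its non-coding one. It was the only one of the 9 summits in an intron, where 20.9% of reproducible summits lay. The other 5' end within 2 kb was that of T23G7.3, at 1835 bp. EFL-1 and DPL-1 act as partners, and the signal at efl-1 was higher than that at dpl-1 in each replicate list.

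Within the MuvB core, lin-54 (IV, 13241044 to 13243401, plus strand), the gene for the DNA-binding subunit, had the strongest summit of the 8 genes in every list. It lay 366 bp upstream of lin-54, in a narrow call from 13240591 to 13240782, with signals of 207 in replicate 1 (rank 24) and 249.9 in replicate 2 (rank 17). In the reproducible set it was the 17th of 2333. The summit is 27 bp upstream of rpl-12, a large ribosomal subunit gene that diverges from lin-54 across 392 bp, and 1264 bp from tag-115. Replicate summits were 3 bp apart, so the position nearer to rpl-12 does not rest on a single replicate. The 5' end of the snoRNA JC8.15 is 1601 bp away.

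The summit of lin-9 (III, 8900237 to 8904131, minus strand), a MuvB scaffold gene, ranked next. It was 148 bp upstream, in a call of 141 bp from 8904208 to 8904348. Signals were 184 in replicate 1 (rank 32) and 153 in replicate 2 (rank 96), and the summits were 6 bp apart. The pooled calls at lin-9 and lin-54 were narrower than the standard 324 bp, as were 5.49% of reproducible calls, and those at the other members had the standard width. The next 5' ends were those of the non-coding RNA gene ZK637.19, 1309 bp away within lin-9, and of unc-32, a gene for a subunit of the vacuolar proton pump, at 1336 bp. A weaker pooled call 1290 bp upstream of lin-9, on the unc-32 side, had a signal of 35.0 and is not in the reproducible set; it had counterparts of 20.9 in replicate 1 and 13.8 in replicate 2.

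The lin-37 gene (III, 7070890 to 7072552, minus strand), for another core subunit, had the weakest leading summit and the one farthest from its gene, 1624 bp upstream in a call from 7074014 to 7074337. Signals were 29.6 in replicate 1 (rank 1703) and 20.7 in replicate 2 (rank 3333), and −log10 q was 2.36 and 2.46. The 5' end closest to it was that of ZK418.5, 325 bp away, which lies on the same strand and ends 60 bp before lin-37 begins. Closer to lin-37 the pooled list had only a call of signal 13.9, 313 bp into the gene, at rank 29314 of 30000. Closely spaced genes on 1 strand are often co-transcribed as operons in C. elegans, but the annotation used here does not mark operons, and whether these 2 are was not tested.

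The small core subunit gene lin-52 (III, 9824083 to 9824750, minus strand) was the only member with more than 1 reproducible summit. The nearer summit was 38 bp upstream (9824626 to 9824949), with signals of 25.6 in replicate 1 (rank 2157) and 29.6 in replicate 2 (rank 2090). Its −log10 q was 1.55 in replicate 1, the lowest of the 9 summits in either replicate, and 3.75 in replicate 2. The farther lay 1474 bp upstream (9826062 to 9826385), with 33.3 in replicate 1 and 62.0 in replicate 2. The farther summit was stronger than the nearer in both replicates, by 1.3 times and 2.1 times. Its closest 5' end was that of ZK632.9, at 792 bp, a same-strand gene that ends 126 bp before lin-52, and it lay 954 bp downstream of the 5' end of ZK632.10 and 1691 bp upstream of ZK632.11. The nearer summit was 644 bp downstream of the 5' end of ZK632.9 and 1546 bp downstream of that of arl-5, an Arf-like GTPase gene. Its replicate summits were 66 bp apart, the widest separation of the 9.

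The histone chaperone gene lin-53 (I, 9618196 to 9619760, minus strand), whose product also serves other chromatin complexes, had a summit 257 bp upstream, in a call from 9619855 to 9620178. Signals were 97.3 in replicate 1 (rank 204) and 100.4 in replicate 2 (rank 267). The divergent gene nra-2, whose product takes part in the assembly of acetylcholine receptors, was nearer, at 210 bp, across an interval of 466 bp. The close paralog rba-1 follows lin-53 on the same strand after 88 bp. By the same 2 kb rule the lin-53 summit, 1910 bp upstream of the 5' end of rba-1, also counts for rba-1. It was the only reproducible summit within 2 kb of that gene.

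**Figure D1:**
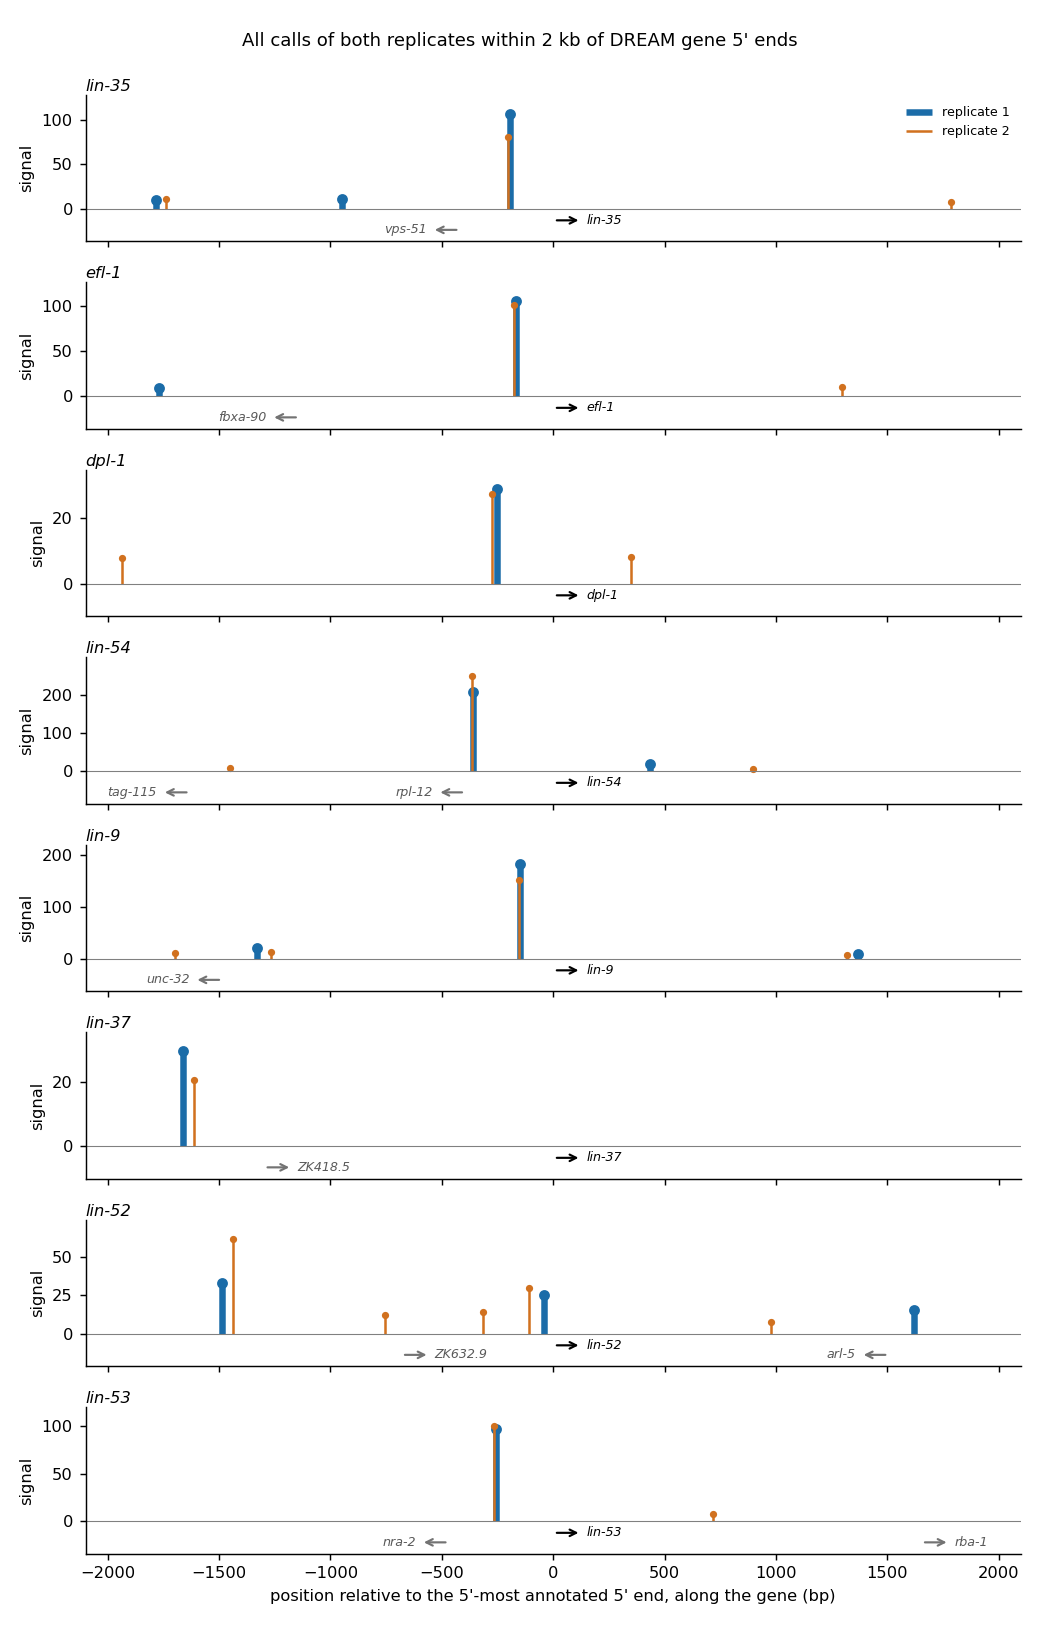
Signal of every call of replicate 1 (thick lines) and replicate 2 (thin lines) within 2 kb of a 5' end, 1 panel for each DREAM gene; arrows mark annotated 5' ends of the gene (black) and of its protein-coding neighbours (grey). The x axis is the distance along the gene in bp and the y axis the deposited signal, on a scale of its own in each panel. A single tall pair of calls stands upstream of each gene except lin-52, which has 2 pairs, and the lin-37 pair stands upstream of ZK418.5.

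Apart from the 9 summits, no call around these genes had a q-value under 0.05. Within 2 kb of the 8 genes there were 16 calls in replicate 1, 23 in replicate 2 and 21 in the pooled list, and in each list exactly 9 had a q-value under 0.05. These 9 were the counterparts of the 9 reproducible summits. By that threshold all 8 genes had a call in replicate 1, against 14.8% of all protein-coding genes, all 8 in replicate 2, against 24.5%, and all 8 in the pooled list, against 19.2%. Calls of any strength were common, with a pooled call within 2 kb at 8 of 8 members and at 69.0% of all protein-coding genes. In the pooled list the summit of lin-54 was 20.1 times as strong as the next call within 2 kb, that of efl-1 15.0 times, that of lin-53 14.4 times, that of lin-9 9.78 times, that of lin-35 8.25 times and that of lin-37 3.62 times. At lin-52 the ratio was lowest, 1.83, since its next call is its other reproducible summit, and a further pooled call there had a signal of 30.9. The pooled list had no second call at dpl-1.

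The ranks of the members spanned most of the reproducible set, while their signals ran from 50.4 to 459 in a set that reached 871. Of 2333 reproducible peaks, lin-54 was in the top 0.729%, lin-9 in the top 2.36%, and efl-1, lin-53 and lin-35 in the top 8.74%, 9.3% and 11.0%. The farther lin-52 summit was at 38.5%, and dpl-1, the nearer lin-52 summit and lin-37 were at 77.2%, 91.3% and 94.3%, close to the lower edge of the set, whose weakest peak had a signal of 48.2. With the 1166 strongest peaks alone, 6 of the 8 genes had a summit within 2 kb, all but dpl-1 and lin-37, against 8.39% of all protein-coding genes. The median of the strongest signal was 195 over the 8 genes and 88.2 over the 2913 protein-coding genes with a reproducible summit within 2 kb. Order was kept between the replicates only in part. The ranks put lin-54 first, lin-9 next, the farther lin-52 summit sixth and dpl-1 eighth in both. In replicate 1 lin-35 was ahead of efl-1 and lin-53, and in replicate 2 it was behind both, so its signal overlaps theirs. The signal of efl-1 was above that of lin-53 in both replicates, by little in replicate 2 (101.3 against 100.4). Likewise lin-37 was ahead of dpl-1 and the nearer lin-52 summit in replicate 1 and behind them in replicate 2. With 2 replicates of 1 group no test between samples exists, and none was made.

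The replicates placed the stronger summits closely and the weaker ones less so. A call in both replicates within 100 bp was found for 9 of 9 summits, against 93.7% of all reproducible summits, and with q under 0.05 in both for 9 of 9, against 77.2%. The replicate summits were 3 to 66 bp apart, with a median of 12 bp, against 19 bp over the 2185 matched peaks of the whole set (quartiles 7 and 43 bp). They were 3 to 12 bp apart at lin-54, lin-9, efl-1, lin-53 and lin-35. At the weaker summits they were 22 bp apart at dpl-1, 47 and 66 bp at lin-52 and 49 bp at lin-37, all above the median of the whole set. On the log2 scale the signal of replicate 1 over replicate 2 was lowest at the farther lin-52 summit (-0.90) and highest at lin-37 (0.52). It was 0.40 at lin-35, and all 9 values were inside the central 90% of all matched peaks (-1.35 to 0.78, median -0.23).

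**Figure D2:**
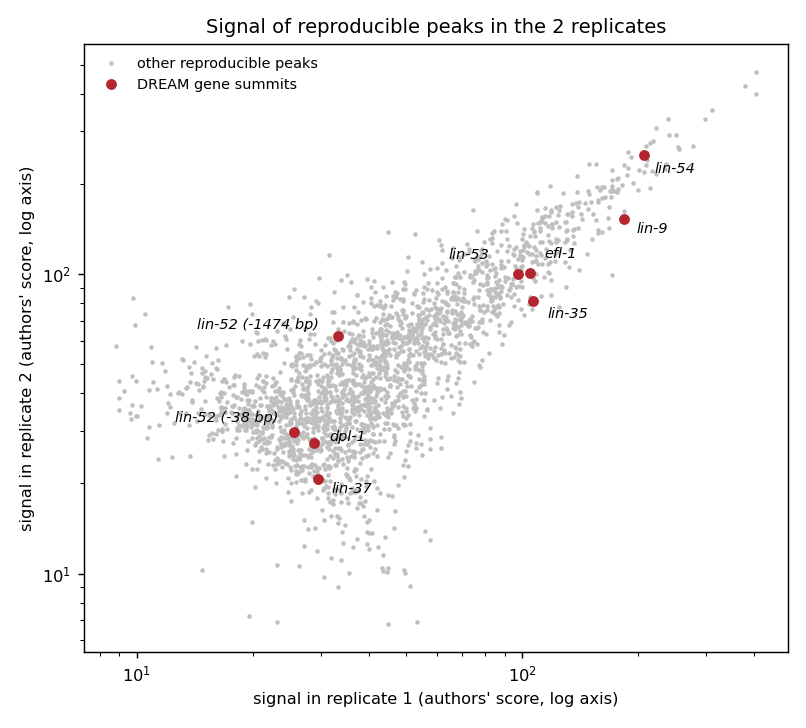
Signal of each reproducible peak in replicate 1 (x axis) and replicate 2 (y axis), both on log axes, for the 9 summits at DREAM genes (red) and the other peaks with a call in both replicates (grey). The summits of lin-54 and lin-9 sit near the top of the cloud, efl-1, lin-53 and lin-35 lie together between 81.2 and 107 in both replicates, and lin-37, dpl-1 and the lin-52 summit at -38 bp sit at its lower end.

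The distance to the 5' end of the member varied, from 38 to 1624 bp. All 9 summits were upstream of the member, as were 82.3% of all gene and summit pairs within 2 kb, and 8 of 9 lay between protein-coding genes, as did 73.3% of reproducible summits. Every one of the 9 summits was within 2 kb of at least 2 protein-coding genes, against 51.9% of the reproducible summits within 2 kb of any. That share counts each summit once, whereas the 9 were reached through genes. A summit near several genes is reached more often that way, so the 2 shares are not on the same basis. The member had the nearest 5' end for 5 of 9 summits, against 59.2% of all such pairs, so the share is near that of genes at large. The other 4 summits were closer to rpl-12, nra-2, ZK632.9 and ZK418.5. If each summit is given only to the gene with the nearest 5' end, 5 of the 8 genes (lin-35, efl-1, dpl-1, lin-9 and lin-52) keep one, against 8.88% of all protein-coding genes. The median offset of the strongest summit was -251 bp over the 8 genes. The summit windows had a median GC content of 41.8%, from 32.3% at the nearer lin-52 summit to 51.7% at lin-9, against 42.8% over all reproducible summits. The dinucleotide CG occurred 19 times at lin-54 and 18 times at lin-9 against a median of 11 over all reproducible summits, and 10 to 14 times at the other 7.

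**Figure D3:**
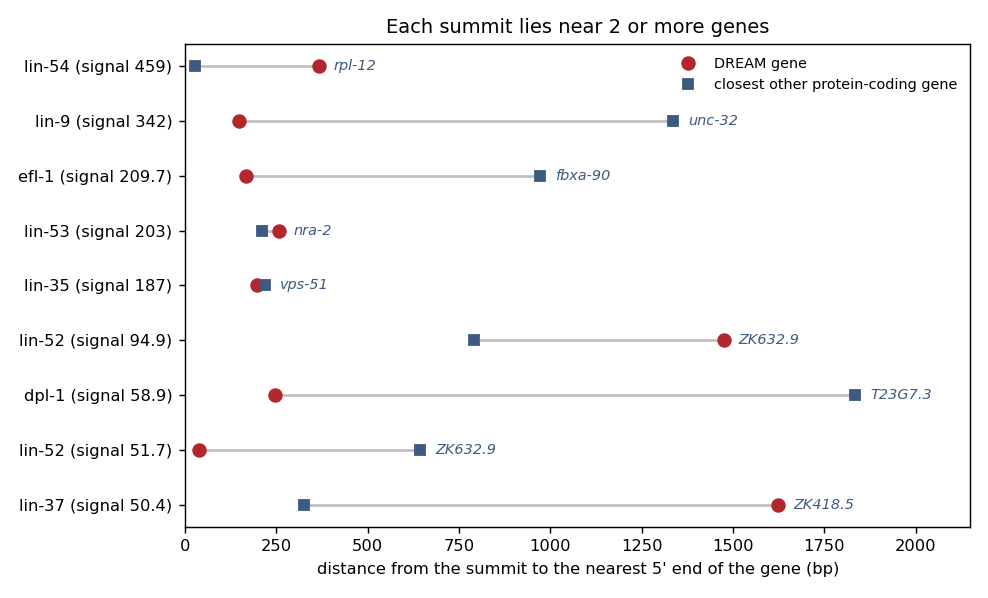
Distance in bp (x axis) from each of the 9 reproducible summits to the nearest 5' end of the DREAM gene (circles) and of the closest other protein-coding gene (squares, named), from the strongest summit at the top to the weakest. The other gene is nearer at lin-54, lin-53, the farther lin-52 summit and lin-37, and the distances differ least at lin-35, 198 and 220 bp.

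The 2 kb limit itself fixed 1 gene and 1 further summit. Its outermost summits inside were those of lin-37 at 1624 bp and lin-52 at 1474 bp. The closest ones outside were 3017 bp upstream of lin-52 (signal 76.7), 4220 bp downstream of the 5' end of lin-9 (56.5) and 6325 bp upstream of lin-53 (439).

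Related genes were read against the same backgrounds, 14.6% of all protein-coding genes within 2 kb and 8.62% within 500 bp, with no test between lists. Of 12 synMuv B genes outside DREAM, 4 had a reproducible summit within 2 kb (33.3%) and 2 within 500 bp (16.7%). They were lin-13 itself (signal 528, 771 bp upstream), the THAP domain gene lin-36 (151, 241 bp), mep-1 (128, 158 bp), which encodes a zinc finger protein of a nucleosome remodelling complex, and lin-15B (103, 940 bp). None was reproducible at arle-14, at hpl-1 or at hpl-2, the last 2 of which encode HP1 proteins. Their strongest pooled calls had signals of 38.0, 30.0 and 23.3, and the first of these, 100 bp upstream of arle-14, had a q-value under 0.05. The transgene carries lin-13 itself, and its part in the signal at lin-13 was not tested.

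Of 14 genes of the Rb and E2F pathway and of entry into S phase, 6 had a reproducible summit within 2 kb (42.9%) and 3 within 500 bp (21.4%, against 8.62% of all protein-coding genes). These were the sliding clamp gene pcn-1 (218, 250 bp upstream), the F-box gene lin-23 (138, 934 bp), the cyclin E gene cye-1 (115, 559 bp), cdk-4 (65.0, 425 bp), the Cdh1 homolog fzr-1 (62.5, 1816 bp) and rnr-1, for the large subunit of ribonucleotide reductase (61.0, 170 bp). At cye-1, cdk-4 and fzr-1 another gene was nearer, namely pqn-21, F18H3.1 and sqv-8, and the fzr-1 summit had no call within 100 bp in replicate 1. The replicates also differed at cdk-4, with 42.0 in replicate 1 (rank 979) and 16.3 in replicate 2 (rank 4825). At rnr-1 they had 19.0 (rank 3915) and 40.1 (rank 1354). The calls at pcn-1, lin-23 and cye-1 ranked 693 or better in both. There was no reproducible summit at cdc-25.1, cdk-2 or cki-1. Neither E2F paralog of efl-1 had a reproducible summit within 2 kb. For efl-2 the strongest pooled call had a signal of 16.9, while efl-3 had no pooled call within 2 kb. Both lists were written with earlier results of these data known.

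**Figure D4:**
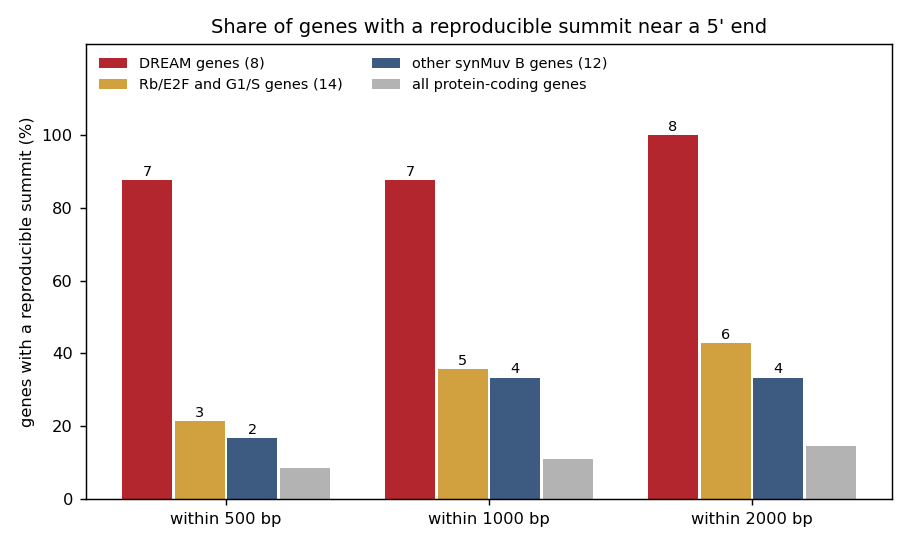
Share of genes (y axis, percent) with a reproducible summit within 500, 1000 and 2000 bp of a 5' end, for the 8 DREAM genes, 14 Rb/E2F and G1/S genes, 12 other synMuv B genes and all protein-coding genes; numbers above the bars count genes. The DREAM bars stand at 7, 7 and 8 genes, and the grey bars at 8.62%, 10.9% and 14.6%.

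Likeness to each member was measured by the distance between log2 signals in the 2 replicates, among genes with a reproducible summit within 500 bp. The genes rpl-12, nra-2, vps-51 and ZK418.5 share the summit of a member, and so its signals, and are not counted here. The genes most like each member were sought at other summits. They were eelo-2 for lin-54 (209 in replicate 1 and 268 in replicate 2), the cohesin loader gene scc-2 for lin-9 (184 and 163), rcat-1 for efl-1 (99.8 and 106), the ribosomal protein gene rpl-41.2 for lin-53 (96.2 and 105) and the mitochondrial ATPase gene atad-3 for lin-35 (104 and 79.6). At the weaker end they were the promoter shared by cav-2 and C56A3.6 for lin-52 (33.6 and 62.4), that shared by vps-50 and cey-4 for dpl-1 (29.6 and 27.4), and srlf-7 for lin-37 (28.6 and 21.1). The distances were 0.018 to 0.11 on the log2 scale. With 2 points for each gene, the likeness describes strength and replicate balance only.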

How the data were processed

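Peak lists were analysed, not reads. Per the deposited file descriptions, the authors called 30000 peaks and background regions on each replicate and on both pooled, always against a control alignment, and took the IDR set from these lists. Aligner, peak caller and IDR threshold: not given in the sources used here. The deposited signal is the caller's score. The deposited −log10 q-value reaches a ceiling (3.43 in replicate 1, 3.75 in replicate 2, 3.61 pooled) and was used only for a threshold of 0.05. The ce11 lists were used. The reproducible set holds exactly the top 2333 pooled calls by signal, so pooled values are not independent of it.

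The 29304 protein-coding 5' ends were taken from the Ensembl annotation of WBcel235 and sequence from RefSeq, with Python 3.11.15 and pandas 2.3.3. Trans-splicing can place an annotated 5' end downstream of the transcription start. Offsets were tested on simulated summits. Replicate calls were matched within 100 bp. The members, lists, motifs and naming rule were chosen with earlier results of these data known. Named were the 8 members, the genes sharing their summits, the gene at another summit closest in replicate signal, and of each comparison list up to 6 genes with and 3 without a summit. No test was made: 1 group of 2 replicates allows none between samples. Alternatives were other windows, peak sets, 5' ends, matching distances and sequence windows.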

Additional observations from a re-analysis of the deposited data

How the results depend on the processing

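With 1 replicate left out, genes and summits were counted in the top 2333 calls of the other. All 8 members kept a summit with the 5'-most end only, with pooled calls of q under 0.05 and without replicate 2. Without replicate 1 the count was 7 of 8 genes and 8 of 9 summits. The lin-37 call, at rank 3333 in replicate 2, fell outside those top calls, though its q-value there was under 0.05. With the 1166 strongest peaks the count was 6 of each. With the nearest 5' end only, it fell to 5 genes and 5 summits. At 500 bp the other synMuv B count was 2 and the Rb/E2F and G1/S count 3, against 8.62% of all protein-coding genes. The Rb/E2F and G1/S count was also 3 with the 1166 strongest peaks, against 8.39%. With windows reaching 50 bp from the summit, E2F-like words were in 0 of 9 (3.94% of reproducible windows) and T-tracts in 0 of 9 (4.93%), and with 200 bp T-tracts were in 4 (33.4%), since fewer or more bases were searched. The median offset was -270 to -253 bp and the median rank 189 to 342 with 1 replicate left out. The replicate matches were 8 of 9 within 50 bp. The cause of the other changes was not tested. No paired analysis was possible because there is 1 group. Depth is unknown, and the signal scale limits comparison between lists.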

Other observations

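The deposited signals of the 2 replicates nearly added up to the pooled signal. The ratio of the pooled signal to the sum of both replicates was 0.94 to 1.05 at the 9 DREAM summits, with a median of 1.00, and had a median of 1.01 over the 2185 matched peaks (5th to 95th percentile 0.93 to 1.13). The summit 6325 bp upstream of lin-53, outside the 2 kb limit, ranked 23 of 2333, above every DREAM summit except that of lin-54.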
